A study of Homo sapiens with 15 samples.

Results

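The cornified envelope genes described here are 10 genes chosen by symbol from the count tables: SPRR1A, SPRR1B, SPRR2A, SPRR2D, SPRR3, IVL, SCEL, TGM1, CSTA and A2ML1. The choice was made with earlier results of these data known. All 10 were found among the 56475 symbols of the total RNA table and among the 20248 symbols of the ribosome footprint table. They were measured in MCF-10A, a non-tumorigenic human mammary epithelial line grown with hydrocortisone, insulin, EGF and serum. Cells received 20 nM of either a control siRNA or an siRNA against eIF3e for 72 h, and total RNA and ribosome-protected footprints were each sequenced from 3 libraries per siRNA. The initiation complex eIF3, of which eIF3e is one component, recruits the small ribosomal subunit to mRNAs, and the comparison asks how mRNA levels and their footprints differ after its loss. Another 3 footprint libraries, 1 each of all ribosomes, of eIF3B-bound ribosomes and of eIF3E-bound ribosomes, have no siRNA named in their treatment labels. All libraries come from 1 cell line, and the labels do not say whether replicates were separate cultures, so p-values refer to the variation among the libraries at hand, which may be technical.

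The cornified envelope is a sheet of cross-linked protein that replaces the plasma membrane of keratinocytes as they finish differentiating in stratified epithelia. Involucrin and sciellin are laid down under the membrane, small proline-rich (SPRR) proteins act as bridges between other envelope proteins, and transglutaminases join them by isopeptide bonds. Protease inhibitors such as cystatin A accumulate in the same cells, and mammary epithelial lines of basal type express some of these genes in culture.

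Total counts were 4263767 to 5646270 in the total RNA libraries, 1889543 to 3447360 in the siRNA footprint libraries and 1224606 to 1630872 in the 3 single libraries. EIF3E itself, the target of the siRNA, was at 187 to 217 CPM in the total RNA of the control libraries and at 20.5 to 25.8 CPM after eIF3e siRNA, where CPM is the count relative to the library size after TMM adjustment within an assay. All 12 markers of basal or stratified epithelium were detected, at a summed level of 12707 to 14011 CPM in control and 12513 to 13091 CPM in eIF3e siRNA total RNA. Of these 12, 5 were called lower and 2 higher in total RNA. The summed level of 7 luminal markers was 261 to 269 CPM in control and 170 to 236 CPM after eIF3e siRNA, with ELF5 at 0. The 7 fibroblast markers summed to 30.3 to 39.8 CPM and 51.0 to 55.6 CPM, with COL1A2 at 0. The 5 endothelial markers summed to 1.83 to 2.64 CPM and 1.01 to 1.75 CPM, and the 7 blood markers to 45.4 to 81.4 CPM and 74.3 to 86.6 CPM, with HBA1 and HBA2 at 0. The summed basal markers in footprints were 26118 to 27761 CPM in control and 24164 to 24894 CPM after eIF3e siRNA, without overlap, and 7 of the 12 were called lower and 3 higher. In footprints the control and eIF3e siRNA sums were 578 to 636 and 403 to 472 CPM for luminal, 65.2 to 92.1 and 136 to 164 CPM for fibroblast, and 278 to 316 and 484 to 597 CPM for blood markers. Markers with under 10 counts over an assay were 4 of 7 fibroblast and 4 of 7 blood markers in total RNA. In footprints they were 3 and 5, so these sums rest on few genes. The part of these marker shifts in the results below was not tested. In such bulk libraries, fewer cells expressing an envelope gene and less RNA in each cell cannot be told apart.

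Of the 10 genes, 6 lie together on chromosome 1, in the epidermal differentiation complex, between positions 152908546 and 153057512 of GRCh38.p14, a stretch of 149.0 kb that starts with IVL and ends with SPRR2A. SCEL is on chromosome 13, CSTA on 3, TGM1 on 14 and A2ML1 on 12. The 250 bases before the annotated start site were available from RefSeq (GRCh38.p14) for 7 of the 10 genes. They are shown for 6 of them because these genes, most of them neighbours, share a short element. The windows are chr1:152908296-152908545 for IVL, chr1:152983831-152984080 for SPRR1A, chr1:153030953-153031202 for SPRR1B, chr1:153057513-153057762 for SPRR2A, chr1:153001499-153001748 for SPRR3 and chr13:77535456-77535705 for SCEL. SPRR2A is read from the minus strand and the others from the plus strand, and capitals mark matches to TGANTCA, the recognition sequence of AP-1, the dimers of FOS and JUN proteins.
IVL: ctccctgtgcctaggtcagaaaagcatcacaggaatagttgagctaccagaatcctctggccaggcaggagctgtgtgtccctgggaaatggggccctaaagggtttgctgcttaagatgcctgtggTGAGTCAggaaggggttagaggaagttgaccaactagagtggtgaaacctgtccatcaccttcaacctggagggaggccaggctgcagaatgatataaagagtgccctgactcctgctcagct
SPRR1A: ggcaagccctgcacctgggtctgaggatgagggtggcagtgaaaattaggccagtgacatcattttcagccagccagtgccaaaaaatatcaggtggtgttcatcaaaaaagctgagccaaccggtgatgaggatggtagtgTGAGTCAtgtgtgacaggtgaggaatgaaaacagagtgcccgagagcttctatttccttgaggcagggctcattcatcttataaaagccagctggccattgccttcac
SPRR1B: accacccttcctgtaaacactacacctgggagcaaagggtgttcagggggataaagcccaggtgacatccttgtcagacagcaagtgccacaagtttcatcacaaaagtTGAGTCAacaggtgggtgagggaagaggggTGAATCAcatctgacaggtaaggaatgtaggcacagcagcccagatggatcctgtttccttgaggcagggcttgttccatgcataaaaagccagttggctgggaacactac
SPRR2A: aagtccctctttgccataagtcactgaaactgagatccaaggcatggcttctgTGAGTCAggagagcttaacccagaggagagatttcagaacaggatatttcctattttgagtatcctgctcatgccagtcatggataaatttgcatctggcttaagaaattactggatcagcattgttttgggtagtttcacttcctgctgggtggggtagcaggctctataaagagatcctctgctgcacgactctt
SPRR3: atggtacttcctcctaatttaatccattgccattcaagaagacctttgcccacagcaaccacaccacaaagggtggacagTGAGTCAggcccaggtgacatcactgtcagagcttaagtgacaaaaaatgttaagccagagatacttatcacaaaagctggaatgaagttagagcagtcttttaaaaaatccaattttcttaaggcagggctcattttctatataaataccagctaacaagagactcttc
SCEL: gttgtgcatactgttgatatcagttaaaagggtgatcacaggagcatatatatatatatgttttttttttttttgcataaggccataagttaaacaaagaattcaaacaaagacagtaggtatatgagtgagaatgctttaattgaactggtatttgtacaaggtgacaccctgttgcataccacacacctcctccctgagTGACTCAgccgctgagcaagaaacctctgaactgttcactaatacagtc

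TGANTCA was present in 6 of the 7 genes with a window, while 6.57% of all 35116 promoter windows of the same length held it on either strand. Its first base stood at position -123 in IVL, -108 in SPRR1A, -197 in SPRR2A, -170 in SPRR3 and -49 in SCEL, counted back from the start site. SPRR1B held it at -141 and again at -111, and 0.402% of all windows held 2 or more matches. Neither of the 2 windows of A2ML1 held it. TATAAA, the TATA box, lay at -29 to -31 in IVL, SPRR1A, SPRR2A, SPRR3 and A2ML1, against 10.7% of all windows with a match anywhere. Of the genes searched, SPRR2A alone also held the octamer ATTTGCAT, at -110 (1.63% of windows), and an ETS-IRF composite element, on the opposite strand at -62 (2.41% of windows). No match overlapped another. SPRR1A and SPRR1B shared a longest identical run of 18 bases in these windows, and each shared 14 bases with SPRR3. These matches describe letters in 1 window per start site and do not show that a factor was bound.

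**Figure D1:**
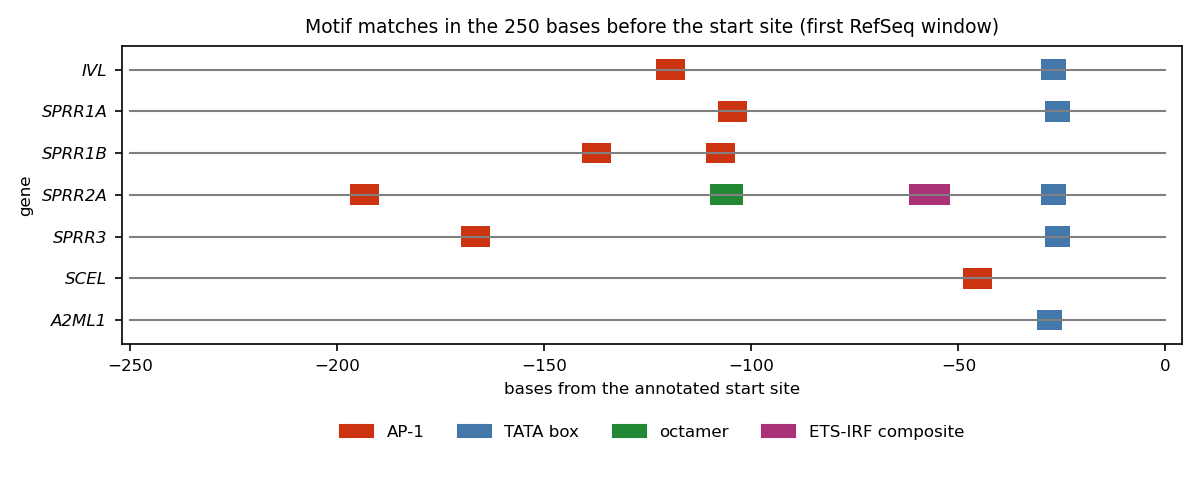
Motif matches in the 250 bases before the annotated start site of 7 genes. The x axis is the distance from the start site in bases, each grey line is the first RefSeq window of a gene, and coloured blocks are matches on either strand to AP-1, the TATA box, the octamer and the ETS-IRF composite element. AP-1 matches stand in 6 of the 7 windows, between -197 and -49, and TATA boxes at -29 to -31 in 5.

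After eIF3e siRNA, 7 of the 8 envelope genes with enough counts to test fell in total RNA and none rose, at an adjusted p under 0.05 in edgeR's quasi-likelihood test. Of all 11719 genes tested, 18.7% were called lower. The levels left after eIF3e siRNA ran from 24.0% of control for SCEL to 65.2% for CSTA among those called. The median log2 fold change of the 8 tested genes was -0.95, against 0.02 over all genes tested. All 8 had every eIF3e siRNA library below every control library, as did 24.2% of all genes. With libraries scaled by total counts instead of TMM, the median over genes passing in both assays moved from -0.01 to 0.15 and the share of called genes that were higher moved from 50.1 to 70.4%. The same 8 log2 fold changes stayed below 0 under that scaling and 5 of them were called. Of all 11719 genes, 1225 were called lower under it. SPRR1A and SPRR3 were too low in total RNA to test.

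In ribosome footprints, 6 of 8 tested envelope genes fell and none rose, while 8.46% of 9228 genes were called lower. Their median log2 fold change was -1.35, against -0.01 over all genes tested. In 7 of the 8 the groups did not overlap, against 16.5% of all genes that were lower without overlap. The number of footprints per mRNA, for which the assay by siRNA interaction was fitted over 12 libraries, was called for 0 of 7 envelope genes by edgeR, and for 0.309% of 9055 genes. At an unadjusted p under 0.05 that test took 1 of the 7, CSTA, and 12% of all genes tested. The DESeq2 Wald test called 0 of the 5 with an adjusted p. The 7 edgeR values were all below 0 in the main fit, with a median of -0.12 against 0.01 over all genes. Leaving out 1 replicate moved SPRR1B, SPRR2D, SCEL, TGM1 and A2ML1 above 0 in at least 1 fit, while CSTA and IVL stayed below.

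**Figure D2:**
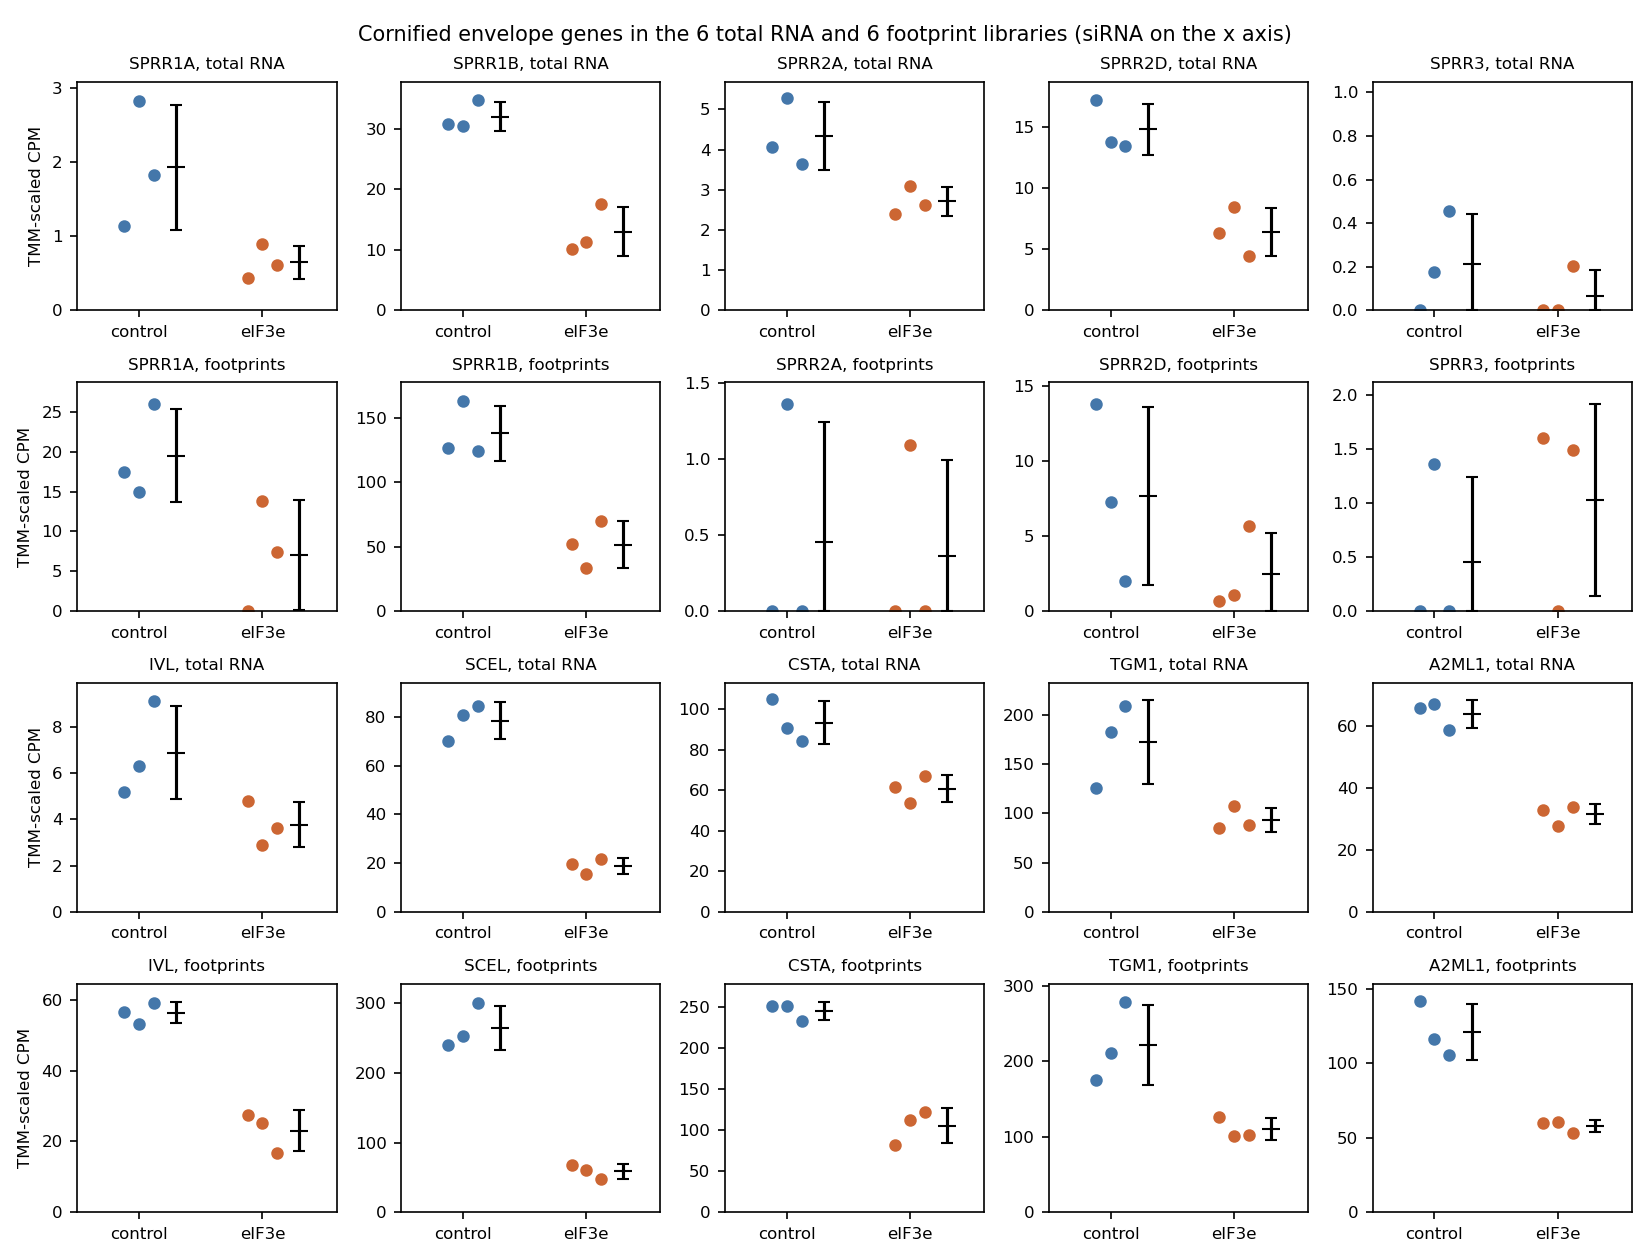
Levels of the 10 genes in each library. The y axis is TMM-scaled CPM, each point is 1 library with control siRNA in blue and eIF3e siRNA in orange, and bars give the mean and SD of 3 libraries, ended at 0 where the SD passes it. The eIF3e siRNA points lie below all control points in total RNA for every gene but SPRR3, and in footprints for every gene but SPRR2A, SPRR2D and SPRR3.

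Among the SPRR genes, whose products are the proline-rich bridges of the envelope, SPRR1B was the most often counted and fell in both assays. Its total RNA was 30.7, 30.4 and 34.7 CPM in the control libraries and 10.0, 11.3 and 17.5 CPM after eIF3e siRNA. Its footprints were 127, 163 and 125 CPM in control and 51.7, 33.1 and 69.6 CPM after eIF3e siRNA. The groups did not overlap in either assay, and eIF3e siRNA library 3 was the highest of its group in both. SPRR1B changed by a log2 fold of -1.29 ± 0.18 (SE, edgeR adjusted p = 4.7e-05, n = 3 per group) in total RNA and -1.41 ± 0.21 (edgeR adjusted p = 5.6e-06) in footprints. Footprints per mRNA of SPRR1B differed by -0.12 ± 0.32, with a 95% interval of -0.75 to 0.51 (edgeR adjusted p = 0.92).

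SPRR1A, the close relative of SPRR1B, had 5, 16 and 8 counts in control total RNA and 2, 4 and 3 after eIF3e siRNA, under the minimum for a test. In footprints it was at 17.5, 15.0 and 26.1 CPM in control and at 0, 13.8 and 7.43 CPM after eIF3e siRNA. The groups did not overlap, and eIF3e siRNA library 2 came close to the lowest control library. A log2 fold change of -1.47 ± 0.61 was not called (edgeR adjusted p = 0.094). It was called without eIF3e siRNA library 2 (-2.36, edgeR adjusted p = 0.024), without the filter on low counts and with the replicate number as a block, and over 11 alternatives the adjusted p ran from 0.016 to 0.54.

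SPRR2D, another SPRR bridge protein, was at 17.2, 13.7 and 13.5 CPM in control total RNA and at 6.33, 8.43 and 4.43 CPM after eIF3e siRNA. These groups did not overlap, and the log2 fold change was -1.21 ± 0.23 (edgeR adjusted p = 0.00068). Its footprints were few and uneven, with 34, 16 and 4 counts in control and 2, 3 and 19 after eIF3e siRNA. The footprint groups overlapped, and their log2 fold change of -1.61 ± 0.85 was not called (edgeR adjusted p = 0.20). Footprints per mRNA of SPRR2D differed by -0.41 ± 0.79, with a 95% interval of -1.96 to 1.15.

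SPRR2A had 18, 30 and 16 counts in control total RNA and 11, 14 and 13 after eIF3e siRNA. In CPM the groups did not overlap, with a lowest control value of 3.65 and a highest eIF3e siRNA value of 3.10, and the log2 fold change of -0.69 ± 0.32 was not called (edgeR adjusted p = 0.10). Its footprints were 3 counts in 1 library of each siRNA and 0 in the other libraries. SPRR3 had 0, 1 and 2 counts in control total RNA and 0, 0 and 1 after eIF3e siRNA, and 0, 3, 0 and 5, 0, 5 counts in footprints. Taken as 3 counts, the limit for a gene with none was 0.531 to 0.704 CPM in total RNA libraries and 0.870 to 1.59 CPM in siRNA footprint libraries, so a difference in SPRR3 was not detectable at this depth. Counting limits of this kind cover counting error only.

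The other SPRR genes in the tables were nearly silent. SPRR2E had 10 counts over the control and 5 over the eIF3e siRNA total RNA libraries, SPRR2F had 4 and 2, and SPRR2B, SPRR2C, SPRR2G and SPRR4 had 0 or 1 in each group. SPRR genes are near-identical in parts, and reads shared between them could be lost or split by the counting, so the values of single SPRR genes are uncertain. The strand setting of the counting is not given in the sources used here, and the antisense genes A2ML1-AS1, A2ML1-AS2 and SCEL-AS1 had 0 counts in total RNA.

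IVL encodes involucrin, an early scaffold of the envelope and a substrate of transglutaminases. Its total RNA was low, at 5.20, 6.33 and 9.13 CPM in control and at 4.80, 2.88 and 3.63 CPM after eIF3e siRNA. The groups did not overlap, but control library 1 and eIF3e siRNA library 1 were close. The log2 fold change was -0.86 ± 0.30 (edgeR adjusted p = 0.032). That call was lost without control library 2 (edgeR adjusted p = 0.062), control library 3 (0.14), eIF3e siRNA library 2 (0.11) or eIF3e siRNA library 3 (0.078), with total count scaling (0.091) and in the DESeq2 Wald test (0.10), and over 12 alternatives the adjusted p ran from 0.015 to 0.14.

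IVL footprints were better covered, at 56.6, 53.1 and 59.1 CPM in control and at 27.4, 25.1 and 16.6 CPM after eIF3e siRNA. The control libraries were tightly grouped and all lay above all eIF3e siRNA libraries. The log2 fold change in footprints was -1.29 ± 0.25 (edgeR adjusted p = 0.00037), and the call held in each of the 12 alternatives run. Footprints per mRNA of IVL differed by -0.43 ± 0.41, with a 95% interval of -1.23 to 0.37 (edgeR adjusted p = 0.73).

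SCEL encodes sciellin, a precursor that is cross-linked into the envelope. It was at 70.1, 80.9 and 84.4 CPM in control total RNA and at 19.6, 15.3 and 21.6 CPM after eIF3e siRNA. Its footprints were 240, 253 and 300 CPM in control, with the last at 299.8 before rounding, and 68.6, 60.8 and 47.3 CPM after eIF3e siRNA. The lowest control library stood more than 3 times above the highest eIF3e siRNA library in both assays. Sciellin mRNA changed by a log2 fold of -2.05 ± 0.14 in total RNA (edgeR adjusted p = 2.3e-08) and its footprints by -2.17 ± 0.16 (edgeR adjusted p = 2.4e-11), the lowest of the called envelope genes in both. Adjusted calls at least 2-fold lower made up 3.11% of genes tested in total RNA and 3% in footprints. Footprints per mRNA of SCEL differed by -0.11 ± 0.23, with a 95% interval of -0.56 to 0.33 (edgeR adjusted p = 0.89).

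TGM1 encodes transglutaminase 1, the membrane-bound enzyme that cross-links the envelope proteins. Its total RNA was 126, 183 and 209 CPM in control and 85.1, 108 and 87.8 CPM after eIF3e siRNA. Its footprints were 175, 212 and 279 CPM in control and 127, 101 and 102 CPM after eIF3e siRNA. The groups did not overlap, and the control libraries were spread widely, with library 1 the lowest and library 3 the highest in both assays. TGM1 changed by a log2 fold of -0.88 ± 0.19 in total RNA (edgeR adjusted p = 0.0061) and -1.01 ± 0.16 in footprints (edgeR adjusted p = 2.2e-05). With total count scaling the total RNA change was -0.74 and just missed the threshold (edgeR adjusted p = 0.0503), the 1 of 13 alternatives in which it was not called. Footprints per mRNA of TGM1 differed by -0.12 ± 0.25, with a 95% interval of -0.61 to 0.36 (edgeR adjusted p = 0.89).

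CSTA encodes cystatin A, an inhibitor of cysteine proteases that is also built into the envelope. Its total RNA was 105, 90.6 and 84.4 CPM in control and 61.5, 53.9 and 67.1 CPM after eIF3e siRNA. Its footprints were 252, 252 and 233 CPM in control and 82.0, 112 and 122 CPM after eIF3e siRNA. The groups did not overlap in either assay, and eIF3e siRNA library 1 was the lowest in footprints but not in total RNA. The log2 fold change was -0.62 ± 0.12 in total RNA (edgeR adjusted p = 0.00068) and -1.22 ± 0.15 in footprints (edgeR adjusted p = 4.4e-07).

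The ratio of CSTA footprint CPM to total RNA CPM was 2.63 in control and 1.74 after eIF3e siRNA, taken from the group means. The interaction was -0.60 ± 0.20, with a 95% interval of -0.99 to -0.21, and it was not called over all genes (unadjusted p = 0.0065, edgeR adjusted p = 0.21). It was called in 1 of 13 alternatives, total count scaling (-0.82, edgeR adjusted p = 0.0449), which moved the median of all genes to -0.20, and the adjusted p ran from 0.0449 to 0.47 over the alternatives. The same ratio went from 4.32 to 3.97 for SPRR1B, from 0.520 to 0.385 for SPRR2D, from 3.37 to 3.13 for SCEL, from 8.17 to 6.12 for IVL and from 1.89 to 1.84 for A2ML1, and for TGM1 it was 91.4% of the control value of 1.29. As a share of control it was 66.0% for CSTA, 73.9% for SPRR2D, whose footprints were few, and 74.9% for IVL. Differences between these genes in the ratio were not tested, and 12% of all genes tested had an unadjusted p under 0.05 in the interaction.

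A2ML1 encodes a broad protease inhibitor of the alpha-2-macroglobulin family made by differentiating keratinocytes. Its total RNA was 65.8, 67.2 and 58.9 CPM in control and 32.9, 27.7 and 33.8 CPM after eIF3e siRNA. Its footprints were 142, 116 and 105 CPM in control and 60.3, 60.4 and 53.2 CPM after eIF3e siRNA. Both assays showed separate groups with little spread within the eIF3e siRNA group. A2ML1 changed by a log2 fold of -1.02 ± 0.12 in total RNA (edgeR adjusted p = 6.9e-06) and -1.07 ± 0.18 in footprints (edgeR adjusted p = 4.0e-05). Footprints per mRNA of A2ML1 differed by -0.046 ± 0.21, with a 95% interval of -0.46 to 0.37 (edgeR adjusted p = 0.96).

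**Figure D3:**
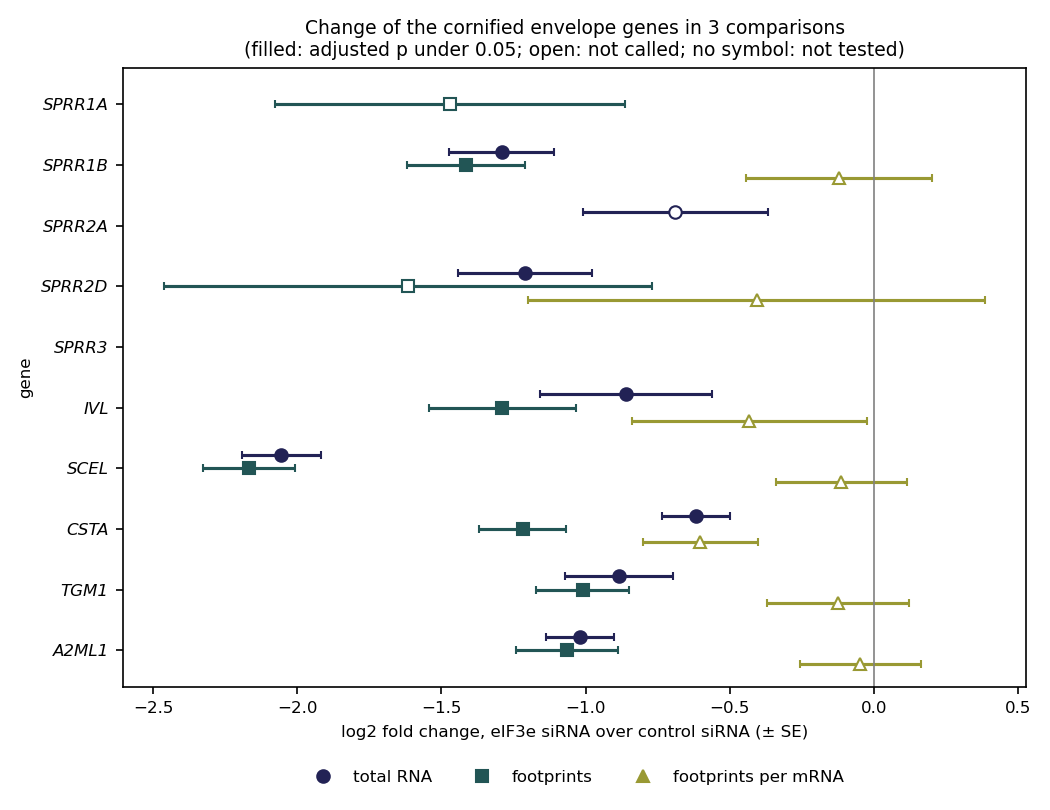
Log2 fold change of each gene, eIF3e siRNA over control siRNA, with its SE from edgeR. Circles are total RNA, squares are footprints and triangles are footprints per mRNA, filled where the adjusted p was under 0.05, open where it was not and left out where the gene was not tested. SCEL lies lowest in total RNA at -2.05 among all values shown there, and the triangles lie between -0.60 and -0.046 with none filled.

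Other genes of the same pathway, taken from lists by function, had calls in both directions. Over all genes tested, 18.7% were called lower and 18.8% higher in total RNA, and 8.46% lower and 10% higher in footprints. Of 3 tested envelope proteins outside the set, 1 fell in total RNA and the median was -0.13. That gene was PI3, which encodes elafin, a protease inhibitor cross-linked into the envelope, at -0.66 ± 0.12 (edgeR adjusted p = 0.00038) and at -0.65 ± 0.13 in footprints (edgeR adjusted p = 0.00034). PPL, the plakin periplakin, rose in footprints at 0.44 ± 0.13 (edgeR adjusted p = 0.017). The PPL call was lost without control library 1 (0.086) or 2 (0.11) and without eIF3e siRNA library 1 (0.071) or 2 (0.12).

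Of 9 tested enzymes of cross-linking and cornification, 5 fell and 1 rose in total RNA (median -0.77), and 3 of 10 fell in footprints (median -0.46). TGM1, one of the 10 genes, is not counted among them. TGM5, a transglutaminase of the epidermis, was at -1.67 ± 0.21 in total RNA (edgeR adjusted p = 1.7e-05) and -1.65 ± 0.37 in footprints (edgeR adjusted p = 0.0013). TGM2, the tissue transglutaminase, was at -1.15 ± 0.18 in total RNA (edgeR adjusted p = 9.4e-05) and -1.14 ± 0.32 in footprints (edgeR adjusted p = 0.012). The TGM2 footprint call was lost without control library 3 (0.052) or eIF3e siRNA library 2 (0.067). CAPN1, a calpain protease, fell to -0.77 ± 0.09 in total RNA and -0.75 ± 0.12 in footprints. ABCA12, the lipid transporter of lamellar granules, was the enzyme-list gene that rose in total RNA, at 0.49 ± 0.12 (edgeR adjusted p = 0.0040).

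Of 14 tested protease inhibitors of stratified epithelium, 7 fell and 2 rose in total RNA (median -0.29), and 6 fell and 2 rose in footprints (median -0.16). SERPINB1, an inhibitor of neutrophil proteases, was at -0.88 ± 0.11 in total RNA (edgeR adjusted p = 1.2e-05) and -1.14 ± 0.14 in footprints (edgeR adjusted p = 2.3e-07). SERPINB5, known as maspin, was at -0.70 ± 0.11 in total RNA and -1.12 ± 0.13 in footprints, and SLPI, the secretory leukocyte protease inhibitor, at -0.66 ± 0.13 and -0.93 ± 0.13.

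Genes of the epidermal differentiation complex outside the set lie beside the SPRR genes on chromosome 1, and the S100 calcium-binding genes made up those named here. Of these genes, 4 of 11 tested fell and 2 rose in total RNA (median -0.31), and 6 of 10 fell and 1 rose in footprints (median -0.97). S100A9 was at -0.77 ± 0.12 in total RNA (edgeR adjusted p = 8.7e-05) and -1.07 ± 0.14 in footprints (edgeR adjusted p = 1.8e-06). S100A14 was at -0.62 ± 0.12 in total RNA (edgeR adjusted p = 0.00069) and -1.39 ± 0.13 in footprints (edgeR adjusted p = 3.2e-09), and S100A10 at -0.51 ± 0.11 and -1.05 ± 0.13. In footprints per mRNA the median of the 10 tested was -0.56, and edgeR called 0 of them. An unadjusted p under 0.05 was found for 6 of the 10, and for 12% of all genes tested. The DESeq2 Wald test called 3 of 8 with an adjusted p, S100A14 (-0.77, adjusted p = 0.0098), S100A11 (-0.58, adjusted p = 0.0070) and S100A10 (-0.53, adjusted p = 0.044), where edgeR gave 0.075, 0.10 and 0.17. Of all 9055 genes tested, with or without an adjusted p, that Wald test called 153, so this base is wider than that of the 8. S100A11 was named after its value was seen.

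Of 10 suprabasal markers, genes of the layers above the basal cells, 5 fell and 2 rose in total RNA (median -0.54), and in footprints 5 of 9 fell and 1 rose (median -0.79). KLK10, a kallikrein-related peptidase, was at -1.60 ± 0.12 in total RNA (edgeR adjusted p = 1.2e-07) and -1.73 ± 0.13 in footprints (edgeR adjusted p = 4.1e-11). LYPD3 was at -0.88 ± 0.12 in total RNA and -0.98 ± 0.15 in footprints, and EMP1, an epithelial membrane protein, at -0.87 ± 0.12 and -1.25 ± 0.13. RHCG, an ammonia transporter, rose in total RNA from 2, 1 and 2 counts in control to 14, 13 and 12 counts after eIF3e siRNA (edgeR adjusted p = 0.00069).

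Of 31 tested regulators of envelope genes, 14 fell and 3 rose in total RNA (median -0.34), and 11 of 29 fell in footprints and none rose (median -0.43). Among those that fell, PRDM1, the repressor BLIMP1, was at -1.31 ± 0.14 in total RNA (edgeR adjusted p = 1.7e-05) and -1.41 ± 0.18 in footprints (edgeR adjusted p = 8.2e-07), and ZNF750, an activator of late differentiation genes, at -0.71 ± 0.10 in total RNA. Of the AP-1 subunits the naming rule took, JUN rose in total RNA at 0.80 ± 0.11 (edgeR adjusted p = 2.5e-05) and JUNB fell in footprints at -0.88 ± 0.13 (edgeR adjusted p = 1.0e-05). ELF3, an epithelial ETS factor, fell in footprints at -0.98 ± 0.13 (edgeR adjusted p = 8.3e-07). Beside these counts, 18.8% of all genes were called higher in total RNA and 10% in footprints.

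In footprints per mRNA edgeR called no gene of the 6 lists in the fit without a block. At an unadjusted p under 0.05 there were 1 of 3 envelope proteins, 0 of 9 enzymes, 2 of 14 protease inhibitors, 0 of 9 suprabasal markers and 7 of 29 regulators, and in these 5 lists the DESeq2 Wald test called 0. Of all genes tested, 12% had an unadjusted p under 0.05. The medians of these 5 lists in that order were 0.01, 0.02, -0.19, -0.09 and -0.13. Values of abundant members, none of them called in that fit, were PPL at 0.57 ± 0.17 (edgeR adjusted p = 0.17), PRSS8, the membrane protease prostasin, at 0.40 ± 0.20, SERPINB2 at -0.33 and EMP1 at -0.38. Other abundant members of these lists were smaller in size, with PI3 at 0.01, ST14 at 0.02, SLPI at -0.27, CLDN4 at -0.36 and NOTCH1 at 0.08. With treatment and number as a block, edgeR called PPL (0.58, adjusted p = 0.012) and EMP1 (-0.36, adjusted p = 0.012), as well as the claudin CLDN4 (-0.34, adjusted p = 0.026) and S100A6 (-0.39, adjusted p = 0.015). Total count scaling, which lowered the median of all genes to -0.20, called EMP1 (-0.59, adjusted p = 0.044), CLDN4 (-0.57, adjusted p = 0.038) and S100A6 (-0.60, adjusted p = 0.0081). The other 11 alternatives called none of these 4 genes, and the highest adjusted p over the alternatives was 0.42 for PPL, 0.65 for EMP1, 0.70 for CLDN4 and 0.57 for S100A6.

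**Figure D4:**
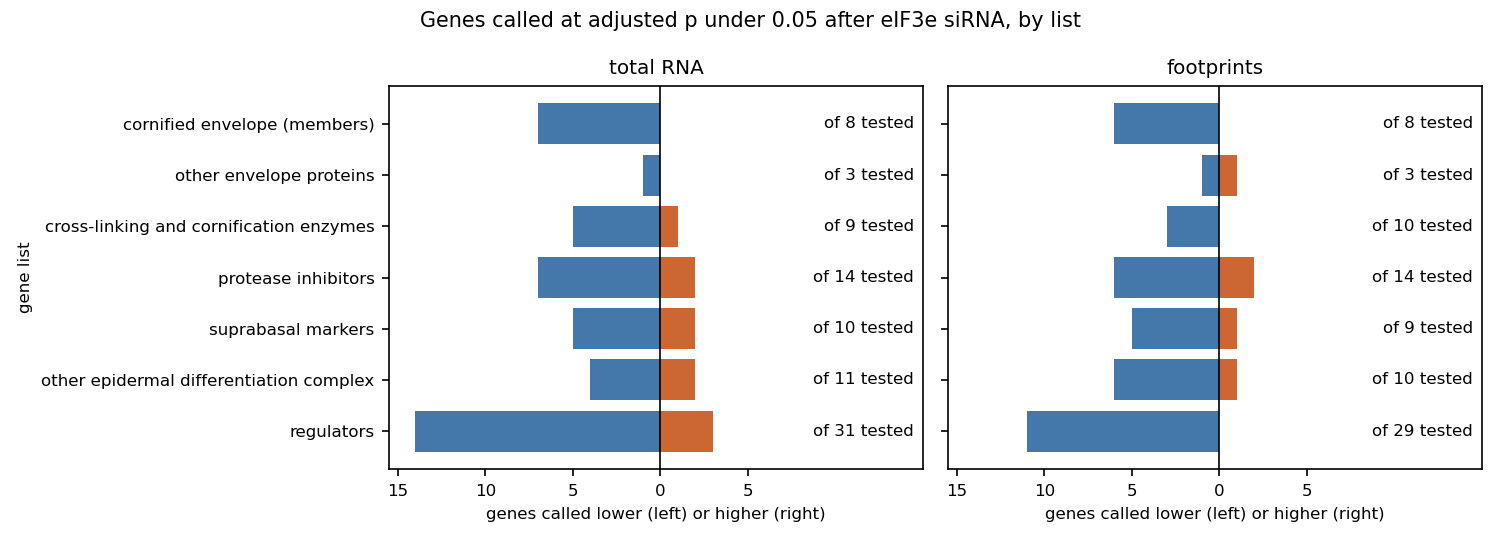
Number of genes called after eIF3e siRNA in the 10 envelope genes and in 6 lists of related genes. Bars to the left count genes called lower and bars to the right genes called higher at an adjusted p under 0.05, in total RNA and in footprints, with the number tested beside each. The envelope genes had 7 of 8 lower in total RNA and 6 of 8 in footprints with none higher, while most other lists had calls in both directions. Over all genes tested, 18.7% were called lower and 18.8% higher in total RNA, and 8.46% lower and 10% higher in footprints.

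Of the 10 envelope genes, 7 passed the filter in both assays, and their mean profile over the 12 libraries, with each gene centred within its assay, served to find genes with a similar pattern. Of 5050 other genes with a mean count of at least 50 in each assay, the highest Pearson's r was that of LMO7, at 0.993, and EEF2 (0.99), KLK8 (0.984) and EREG (0.984) were also among the 5 highest. EIF3E was at 0.983 by the same measure, and 342 genes had an r above 0.9, so the profile follows the siRNA contrast that all 12 libraries share. The log2 fold changes of these genes in total RNA and footprints were -1.03 and -1.15 for LMO7, -0.99 and -1.21 for EEF2, the translation elongation factor, -1.90 and -1.89 for KLK8, a peptidase of the kallikrein family, and -1.26 and -1.24 for EREG, an EGF receptor ligand. LMO7, EEF2, KLK8 and EREG were chosen from the same 12 libraries for a matching profile, so the choice itself favours falls in both assays. Among the envelope genes, the r of each with the mean of the other members ran from 0.620 for SPRR2D to 0.957 for A2ML1.

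The 3 single footprint libraries held few counts of the envelope genes and have no replicates, so they allow no test. CSTA had 89 counts in the library of all ribosomes, 35 in that of eIF3B-bound and 43 in that of eIF3E-bound ribosomes. Scaled by TMM factors, its ratio to the library of all ribosomes was 0.330 (exact 95% interval 0.217 to 0.494) for eIF3B and 0.357 (0.242 to 0.519) for eIF3E. Among 7835 genes with at least 50 counts over the 3 libraries, 16.1% were at least 2-fold lower with eIF3B and 7.96% with eIF3E.

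SCEL, in contrast, had 52, 55 and 76 counts, and its ratios of 0.889 (0.597 to 1.32) and 1.08 (0.749 to 1.57) had intervals that include 1. The same held for SPRR1B, with 17, 26 and 35 counts and ratios of 1.29 (0.671 to 2.52) and 1.52 (0.829 to 2.89). TGM1 had 16, 34 and 24 counts, with ratios of 1.79 (0.959 to 3.46) and 1.11 (0.565 to 2.23). A2ML1 had 7 counts among all ribosomes and 0 in both bound libraries, where the upper limits of the ratio were 0.583 and 0.512. IVL had 3, 8 and 10 counts, SPRR1A had 2, 0 and 7, and SPRR2A, SPRR2D and SPRR3 had 0 in all of them, where 0 allows up to 1.84 to 2.45 CPM. These intervals cover counting error in 1 library each.

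The library of all ribosomes held far fewer envelope footprints than the control siRNA libraries, with CPM here taken from unadjusted library totals. A2ML1 was at 5.72 CPM there and at 135, 120 and 113 CPM in the control siRNA libraries. TGM1 was at 13.1 CPM against 167, 218 and 300 CPM, the last being 300.1 before rounding, and SPRR1B at 13.9 CPM against 121, 167 and 134 CPM. All 6 envelope genes with a mean control count of at least 50 were at least 2-fold below the lowest control library, as were 12.8% of 4728 such genes. That filter used the control siRNA libraries alone, which favours lower values in the single library for the 6 and the 4728 alike. All 6 also lay below each eIF3e siRNA library, but the share of all genes that did so was not computed. The ratio to the pooled control libraries ran from 0.0430 for IVL (exact 95% interval 0.00884 to 0.127) to 0.291 for CSTA (0.233 to 0.361). This sets 1 library against 3, preparation and siRNA treatment cannot be told apart, and no test was made.

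**Figure D5:**
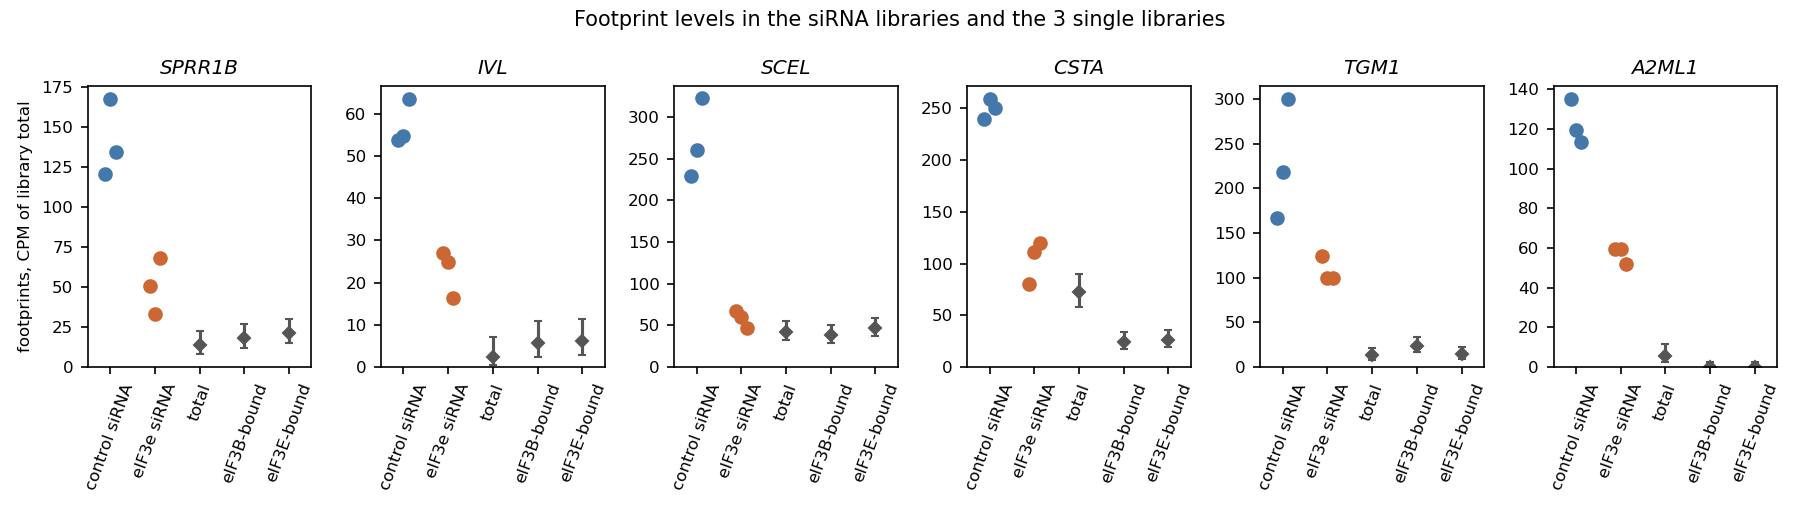
Footprints of 6 envelope genes in the siRNA libraries and the 3 single libraries. The y axis is CPM of the unadjusted library total, blue and orange points are the 3 libraries of control and eIF3e siRNA, and grey diamonds are single libraries with exact 95% counting intervals. The single library of all ribosomes lies below every siRNA library for all 6 genes, for A2ML1 at 5.72 CPM. How many of all genes do so was not counted.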

How the data were processed

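Total RNA and footprints of 26 to 34 nt were analysed from 15 libraries. The authors deposited unnormalised read counts for each gene symbol. Tools and builds named in the submitters' processing notes are HTSeq, STAR 2.5, Bowtie 1.1.2 and cutadapt 1.18, and GRCh38 or hg38. Neither annotation nor strand setting is stated there. Columns were mapped to samples by title (0 unmapped).

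Tests used edgeR 4.0.16 under R 4.3.3. Genes were kept by filterByExpr at a minimum count of 10, each assay had its own TMM factors, and two-sided quasi-likelihood F tests came from robust fits. Benjamini-Hochberg adjustment ran over all genes tested, at a threshold of 0.05. SE was taken from the fold change and F. Total RNA and footprints were fitted on 6 libraries each, and footprints per mRNA as the assay by siRNA interaction over 12. Calls were tested on simulated data. Ratios between single libraries used exact conditional intervals. Promoter motifs were searched in RefSeq windows on both strands.

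The 10 genes and the gene lists were chosen with earlier results of these data known. The naming rule takes, per list and comparison, up to 4 called genes by smallest adjusted p (where none was called, the 2 with most counts) and the 5 genes most like the mean profile. The text gives a selection of these, and some genes that the rule names are not reported here. Alternatives were DESeq2 1.42.0 size factors and Wald test, total count scaling, no filter, a minimum count of 50, a replicate block and leaving out each replicate. The genes of the footprint table alone and a block of treatment and number were added after seeing the data. No 2 libraries were counted as 1: every pair differed beyond counting noise.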

Additional observations from a re-analysis of the deposited data

How the results depend on the processing

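The number of envelope genes called was 5 to 7 in total RNA and 6 or 7 in footprints over the alternatives, all lower. In total RNA, the 5 came from total count scaling, which called 1225 of all 11719 genes lower. In footprints, the replicate block called 7 envelope genes and 775 of all 9228 genes lower. In footprints per mRNA, edgeR called 28 genes in all and 0 envelope genes, and other settings called 92 genes with 1 envelope gene (total count scaling), 46 (minimum count 50), 153 (DESeq2 Wald test), 166 (replicate block by treatment and number) and 0 to 22 when each replicate was left out, with 0 envelope genes in these. Total count scaling moved the share of called genes that were higher from 46.4 to 3.26%. The cause of these shifts was not tested. Same-numbered libraries had r = -0.03 to 0.03 between siRNAs in total RNA and -0.01 to 0.00 in footprints, with the own number best in 1 of 3 in each. Between assays r was 0.14, 0.00 and 0.13 in control (own number best in 2 of 3) and 0.04 to 0.05 after eIF3e siRNA (3 of 3). This is a hint of pairing between assays that falls short only in control. The main fit does not take the numbers as pairs. The block by treatment and number, which does, moved the calls in footprints per mRNA from 28 to 166, with 0 envelope genes in both. The replicate block called 4606 genes in total RNA, 1676 in footprints and 34 in footprints per mRNA, with 7, 7 and 0 envelope genes.

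Some uncalled differences in footprints per mRNA changed sign. Under total count scaling KLK8 was at -0.21, EREG -0.19, PI3 -0.20, ST14 -0.19, NOTCH1 -0.13 and S100A2 -0.12. With a minimum count of 50, KLK8 was at -0.028, EREG -0.017, PI3 -0.025 and ST14 -0.016, and KLK8 was at -0.0042 with the replicate block and -0.0057 with the block by treatment and number. Leaving out 1 replicate, the ranges were -0.16 to 0.084 for A2ML1, -0.035 to 0.10 for EREG, -0.082 to 0.14 for KLK8, -0.0049 to 0.16 for NOTCH1, -0.055 to 0.061 for PI3, -0.011 to 0.19 for S100A2, -0.26 to 0.14 for SCEL, -0.27 to 0.047 for SPRR1B, -2.16 to 0.23 for SPRR2D, -0.051 to 0.13 for ST14 and -0.30 to 0.044 for TGM1. Depth limits SPRR1A in total RNA, SPRR2D in footprints and SPRR2A and SPRR3 in both assays, with under 20 counts in most libraries there.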
